A study of Homo sapiens with 24 samples.

Results

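The mitochondrially encoded genes are the 37 genes of the human mitochondrial genome. They were taken as every row of the deposited expression table whose gene symbol begins with MT-, which gave 37 of 60609 gene rows: 13 protein-coding genes, 2 ribosomal RNA (rRNA) genes and 22 transfer RNA (tRNA) genes. All samples were A549 cells, an established human lung adenocarcinoma line. Cells were transfected for 48 h with a pool of siRNAs against BOP1 (siBOP1), a factor for maturation of the large cytosolic ribosomal subunit, or with an siRNA against firefly luciferase (siFLuc), a gene that human cells lack. Afterwards 1000 U/mL of interferon beta (IFN) or a mock stimulus was applied for 8 h or 12 h. The 8 groups were siFLuc mock, siFLuc IFN, siBOP1 mock and siBOP1 IFN at each of these times, with 3 libraries each. The controls were thus also transfected, and the cells came from 1 cell line. The labels do not say whether the libraries of a group came from separate cultures, so the p-values measure only the spread between these libraries, which may be technical.

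Mitochondrial DNA is transcribed from both strands into long RNAs, which are cut mainly at the tRNAs that lie between the other genes. The protein-coding genes encode core subunits of complexes I, III, IV and V of oxidative phosphorylation, while the rRNAs and tRNAs serve the mitochondrial ribosome. All other parts of these machines are encoded in the nucleus. Human mitochondrial mRNAs, except MT-ND6, carry short poly(A) tails, and the rRNAs carry only a few added A residues. The kit for stranded mRNA libraries enriches poly(A) RNA, so an mRNA, an rRNA and a tRNA do not enter them equally, and a value for an rRNA or tRNA row here is not its level in the cell.

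Of the protein-coding genes 12 lie on the plus strand of the mitochondrial chromosome and 1, MT-ND6, on the minus strand (GENCODE 29, GRCh38). Of the tRNA genes 14 lie on the plus and 8 on the minus strand. Neighbouring genes touch or overlap, so some reads belong to a pair of rows. MT-ATP8 (chrM:8366-8572) and MT-ATP6 (chrM:8527-9207) are both subunits of the ATP synthase and share 46 bases. MT-ND4L (chrM:10470-10766) and MT-ND4 (chrM:10760-12137), both of complex I, share 7 bases. MT-ATP6 and MT-CO3 (chrM:9207-9990), a subunit of complex IV, share 1 base. The stretches are shown because they join the rows whose values are compared below. In the first and second the capitals mark the first codon of the downstream gene and the last codon of the upstream gene, and in the third (chrM:9184-9230) they mark the first codon of MT-CO3. All are read on the plus strand, 5′ to 3′, from the GRCh38 sequence.
MT-ATP8 and MT-ATP6 overlap: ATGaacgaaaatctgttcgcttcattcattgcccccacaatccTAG
MT-ND4L and MT-ND4 overlap: ATGcTAA
MT-ATP6 and MT-CO3 junction: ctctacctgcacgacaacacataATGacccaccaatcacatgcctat

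The rRNA genes are MT-RNR1 (chrM:648-1601, ENSG00000211459.2), which gives the 12S rRNA of the small mitochondrial ribosomal subunit, and MT-RNR2 (chrM:1671-3229, ENSG00000210082.2), which gives the 16S rRNA of the large subunit. Since the kit selects poly(A), the first longest run of A inside each gene is shown in capitals. The run had 6 bases in MT-RNR1 (printed stretch chrM:981-1010) and 7 in MT-RNR2 (printed stretch chrM:2445-2475). Runs in the protein-coding genes had between 3 bases in MT-ND4L and MT-ND6 and 8 in MT-ND5, so the rRNA genes were within that range.
MT-RNR1, longest A run: cacctgagttgtAAAAAActccagttgaca
MT-RNR2, longest A run: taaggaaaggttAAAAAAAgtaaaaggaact

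The deposited values are TPM, transcript abundances corrected for length and scaled so that each library sums to 1000000. Read totals cannot be had from TPM, and depth is therefore unknown. Between 13844 and 14509 genes per library reached 1 TPM. KRT8 (2086 to 3803 TPM) and KRT18 (1785 to 2862 TPM), epithelial keratins, were high in every library, and EPCAM was low (1.92 to 5.48 TPM). Of the markers of other cells, CD3E (T cells) was listed at 0 throughout, and PTPRC, COL3A1, VWF and PECAM1 reached at most 0.345 TPM. COL1A1, a fibroblast marker (5.37 to 19.3 TPM), and CD14, an immune marker (1.81 to 5.26 TPM), were not lower than EPCAM in range or close to it. BOP1 itself fell by 1.84 on the log2 scale with siBOP1 averaged over treatment and time (SE 0.09, limma adjusted p = 2.04e-11). The table columns end in 1, 2 or 4 within each group, and this column number is used below to name a library. The siFLuc mock 12 h library numbered 4 stood apart in the mitochondrial rows, and results that rest on it are given with and without it. It was picked out by these same rows, so a test passed without it gives no independent support.

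The 13 mRNA rows together held 5.43% to 13.8% of a library's TPM, with a median of 11.9%. The 2 rRNA rows held 1.17% to 2.22% (median 1.65%), and the 22 tRNA rows 0% to 0.0130% (median 0.00332%). The siFLuc mock 12 h library numbered 4 had the lowest mRNA share, and the next lowest share was 9.42%, in the siBOP1 IFN 8 h library numbered 4. In bulk RNA a smaller share can come from fewer cells that hold the RNA, from less of it per cell or from more of other RNAs. These cannot be told apart.

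Among siFLuc cells the mRNA share was 11.5% ± 0.70 in mock and 11.4% ± 0.30 in IFN libraries at 8 h, and 10.4% ± 4.27 and 11.4% ± 1.24 at 12 h (SD, n = 3 in each group). Among siBOP1 cells it was 12.7% ± 0.54 in mock and 11.3% ± 1.60 in IFN libraries at 8 h, and 12.4% ± 2.19 and 11.8% ± 1.03 at 12 h (SD, n = 3 in each group). Mock and IFN libraries overlapped in each of the 4 pairs. The siBOP1 mock libraries lay above the siFLuc mock libraries at 8 h, with no overlap, and overlapped with them at 12 h.

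The rRNA share was lower with IFN. It was 1.51% ± 0.13 with IFN and 1.83% ± 0.22 in mock libraries for siFLuc at 8 h, and 1.30% ± 0.15 and 1.75% ± 0.29 for siFLuc at 12 h (SD, n = 3 in each group). For siBOP1 it was 1.55% ± 0.10 and 2.07% ± 0.22 at 8 h, and 1.38% ± 0.10 and 2.11% ± 0.07 at 12 h (SD, n = 3 in each group). With siBOP1 every IFN library was below every mock library of its time, and with siFLuc the groups overlapped at both times.

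**Figure D1:**
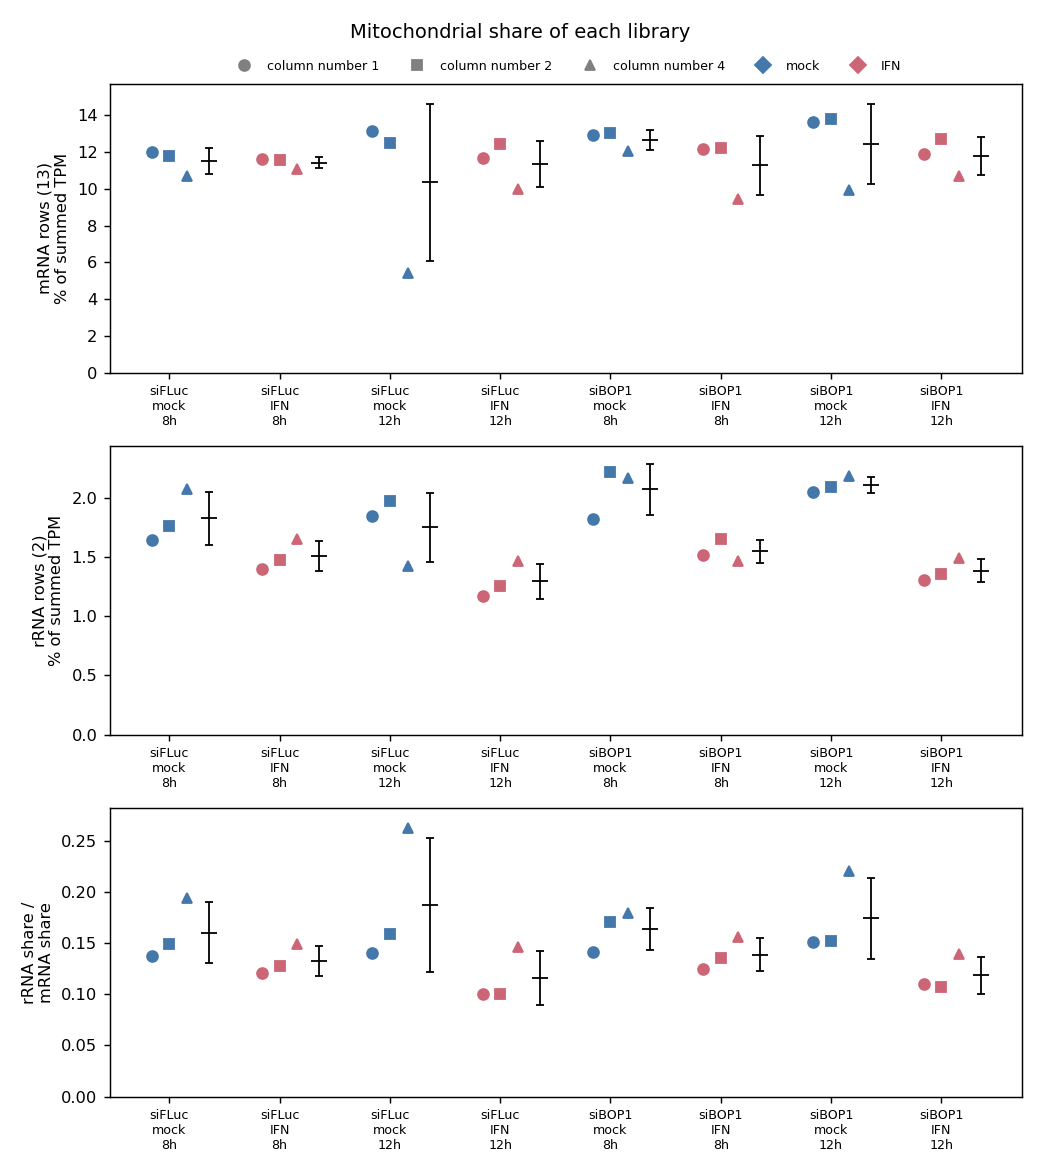
Share of summed TPM held by the 13 mRNA rows (top) and the 2 rRNA rows (middle), in percent, and the ratio of these shares (bottom), for the 8 groups on the x axis. Each symbol is 1 library, shaped by column number and coloured by treatment, and the black mark and bar are the group mean ± SD (n = 3). The mRNA share of the siFLuc mock 12 h library numbered 4 is 5.43%, below all others, while the rRNA share is lower in IFN than in mock groups by their means in each pair.

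By mean TPM over the 24 libraries, the subunits of complex IV and the ATP synthase led. MT-CO2 (19119 TPM), MT-CO3 (17992 TPM) and MT-CO1 (16456 TPM) encode the catalytic core of complex IV. MT-ATP8 stood at 16760.3 TPM and MT-ATP6 at 11492 TPM. The order among neighbours was not firm at the top: MT-CO2 was above MT-CO3 in 16 of 24 libraries, MT-CO3 above MT-ATP8 in 16, and MT-ATP8 above MT-CO1 in 17.

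The complex I subunits were lower. MT-ND4 (7142 TPM) and MT-ND4L (7072 TPM) could not be ordered, with MT-ND4 higher in 13 of 24 libraries. MT-ND2 stood at 5307 TPM, MT-ND1 at 4588 TPM and MT-ND3 at 4176 TPM. MT-CYB, the mitochondrially encoded subunit of complex III, stood at 4182 TPM and was above MT-ND3 in 12 of 24 libraries. MT-ND5 (1572 TPM) was below these in its mean, and MT-ND6 (109 TPM) was the lowest in every library.

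MT-ND6 (chrM:14149-14673) is the only protein-coding gene on the minus strand, and whether the counting used strand is not stated. Its TPM was 0.773% to 17.1% of that of MT-ND5, the gene next to it on the plus strand. It also varied most, with a coefficient of variation of 51.7% over the 24 libraries, against 13.3% (MT-ND4) to 21.2% (MT-ND2) for the other protein-coding genes. MT-ATP8, which shares a transcript with MT-ATP6, had the higher TPM in 24 of 24 libraries, with a ratio between 1.20 and 1.66. The ratio of MT-ND4L to MT-ND4, the other pair on a shared transcript, lay between 0.861 and 1.08.

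The rRNA rows averaged 14459 TPM for MT-RNR2 and 2411 TPM for MT-RNR1. MT-RNR2 was 4.83 to 7.43 times MT-RNR1, though both belong to the same ribosome and are cut from the same transcript. Nuclear copies of mitochondrial DNA can share reads with the members, and how such reads were assigned is not stated. The highest was MTATP6P1 on chromosome 1, a copy of MT-ATP6, at a mean of 1155 TPM, followed by MTND2P28 at 155 TPM.

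The tRNA rows were mostly empty. The tRNA genes span 59 to 75 bases, and mature tRNAs carry no poly(A). Of the 22, 11 were at 0 in all libraries and 9 passed the filter for testing (at least 1 TPM in at least 3 libraries). The highest by mean were MT-TF (8.35 TPM), MT-TS2 (7.76 TPM), MT-TV (6.02 TPM) and MT-TL1 (4.68 TPM). None was above 0 in more than 10 of 24 libraries.

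The main comparison was IFN against mock treatment. Both rRNA rows fell, while none of the 13 mRNA rows passed the test. Averaged over siRNA and time, MT-RNR2 fell by 0.45 (SE 0.06, limma adjusted p = 3.64e-06) and MT-RNR1 by 0.34 (SE 0.08, limma adjusted p = 0.00159) on the log2(TPM + 1) scale used for all changes here. Of the 16062 genes tested, 29% fell and 13% rose in this comparison (41.9% in all), and the median change of all genes was -0.10. The mRNA rows had a median change of -0.0016, with 6 above 0 and 7 below, from -0.14 for MT-CO3 to 0.13 for MT-ND3.

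MT-RNR2 in siFLuc cells at 8 h was 14244, 15294 and 17928 TPM in the mock libraries numbered 1, 2 and 4, and 11883, 12708 and 14053 TPM with IFN. At 12 h the mock values were 16297, 17061 and 11807 TPM, and the IFN values 10064, 10948 and 12181 TPM. At 8 h the groups did not overlap, as for 18.9% of all genes in that direction. At 12 h the only mock library within the IFN range was the one numbered 4, and 15.1% of all genes were lower without overlap.

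MT-RNR2 in siBOP1 cells at 8 h was 15576, 18635 and 18743 TPM in mock and 12932, 14009 and 12327 TPM in IFN libraries. At 12 h it was 17988, 18395 and 18459 TPM in mock and 11237, 11676 and 12566 TPM in IFN libraries. All IFN libraries were below all mock libraries at both times, as was the case for 26.7% of all genes at 8 h and 19.2% at 12 h.

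With IFN, MT-RNR2 passed the limma test in 3 of the 4 pairs: siFLuc at 12 h (-0.43, adjusted p = 0.0171), siBOP1 at 8 h (-0.43, adjusted p = 0.0168) and siBOP1 at 12 h (-0.63, adjusted p = 0.000704). In siFLuc cells at 8 h the change was -0.29 (adjusted p = 0.131, SE 0.12 in each case). Genes that fell made up 5.07% of those tested in siFLuc cells at 8 h, 6.43% at 12 h, and 9.11% and 7.58% in siBOP1 cells at 8 h and 12 h. The siBOP1 12 h call of MT-RNR2 held in all 24 fits with 1 library removed and all 12 alternative settings. The calls in siFLuc cells at 12 h and siBOP1 cells at 8 h each held in 20 of 24 and 9 of 12. With median-of-ratios rescaling neither passed (-0.37, adjusted p = 0.115, and -0.27, adjusted p = 0.298). The siFLuc 12 h call was lost without the mock library numbered 1 or 2 or the IFN library numbered 1 or 2 of that pair (adjusted p = 0.0839, 0.104, 0.0931 and 0.0558). The siBOP1 8 h call was lost without the mock library numbered 2 or 4 or the IFN library numbered 1 or 4 (adjusted p = 0.0662, 0.0737, 0.0507 and 0.0598).

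MT-RNR1 passed in siBOP1 cells at 12 h (-0.47, SE 0.16, adjusted p = 0.0477). That call held in 8 of 24 fits with 1 library removed and in 7 of 12 alternative settings, with a change of -0.34 (adjusted p = 0.213) without the mock library numbered 4. Its changes elsewhere were -0.15 (siFLuc, 8 h), -0.39 (siFLuc, 12 h) and -0.35 (siBOP1, 8 h), with adjusted p = 0.647, 0.111 and 0.154. When libraries were blocked by column number, since same-numbered libraries deviated together, MT-RNR1 also passed in siFLuc cells at 12 h (adjusted p = 0.0186) and siBOP1 cells at 8 h (adjusted p = 0.0336), and the tRNA row MT-TV in siBOP1 cells at 8 h (-3.29, adjusted p = 0.0183). That made 7 member calls in the 4 comparisons in place of 4. In those blocked fits 12.7% (8 h) and 15.8% (12 h) of the genes tested fell with siFLuc, and 20.4% and 16.6% with siBOP1.

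MT-RNR1 in siFLuc cells was 2216, 2322 and 2849.7 TPM in mock libraries at 8 h against 2125, 2061 and 2474 TPM with IFN, and 2193, 2702 and 2447 TPM against 1666, 1577 and 2444 TPM at 12 h. In siBOP1 cells it was 2651, 3587 and 2925 TPM against 2247, 2542 and 2373 TPM at 8 h, and 2533, 2540.3 and 3346 TPM against 1786, 1926 and 2338 TPM at 12 h. IFN and mock groups overlapped in siFLuc cells and were apart in siBOP1 cells, where 26.7% (8 h) and 19.2% (12 h) of all genes were lower without overlap.

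**Figure D2:**
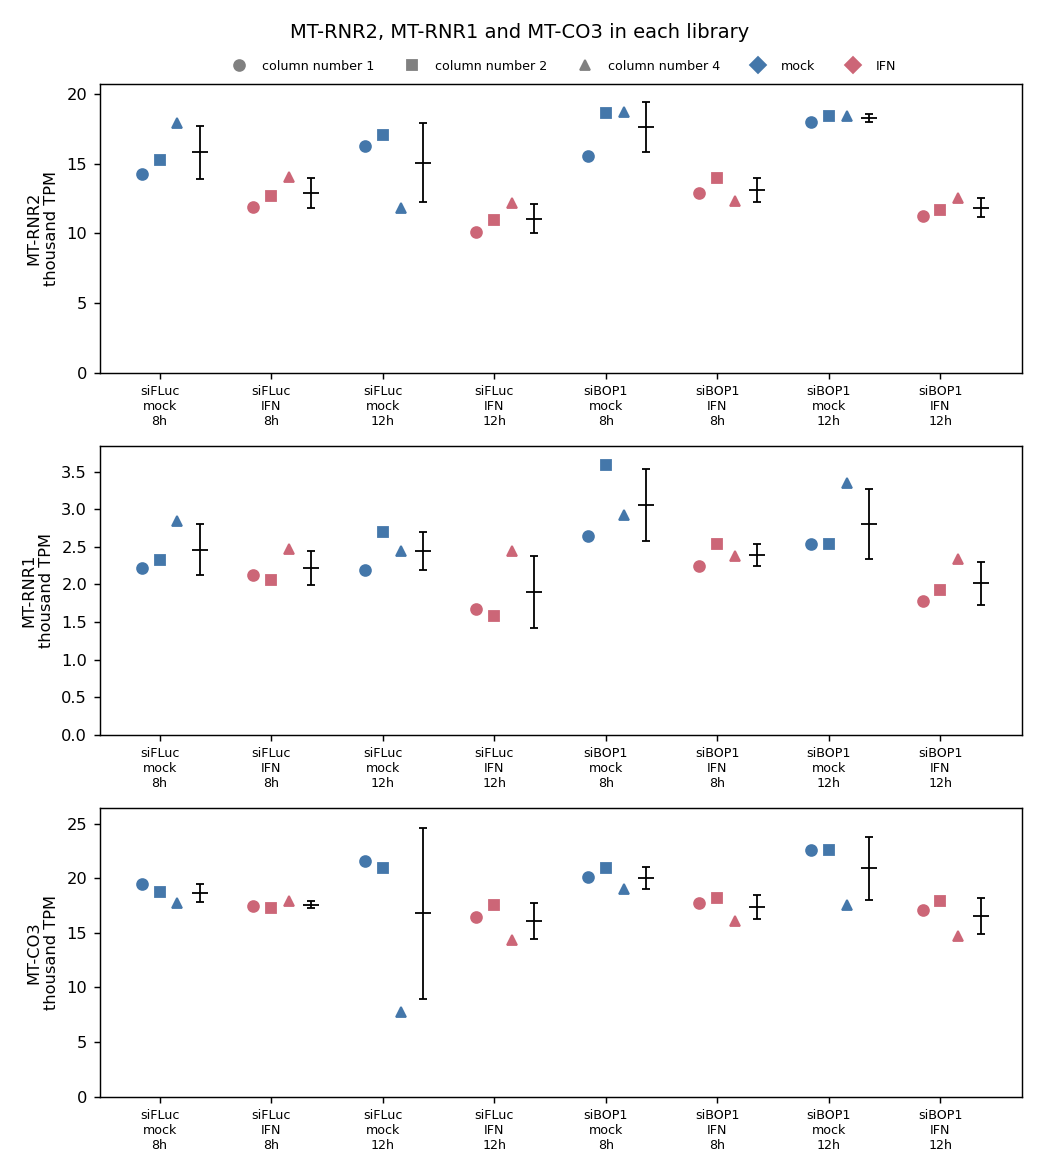
TPM divided by 1000 of MT-RNR2 (top), MT-RNR1 (middle) and MT-CO3 (bottom) in the 24 libraries, by group on the x axis, with symbols by column number and colours by treatment. Black marks and bars are the group mean ± SD (n = 3). MT-RNR2 is lower with IFN without overlap in siFLuc cells at 8 h and in siBOP1 cells at 8 h and 12 h. So were 18.9%, 26.7% and 19.2% of all genes in these pairs. The MT-CO3 value of 7778 TPM in the siFLuc mock 12 h library numbered 4 is the lowest.

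The IFN effect on the members did not pass a test of difference between the siRNAs or times. For MT-RNR2 the difference of the IFN effect between siBOP1 and siFLuc was -0.13 at 8 h and -0.20 at 12 h (SE 0.17 each), and no member passed in any of the 4 interaction tests (limma, smallest adjusted p over the mRNA and rRNA rows 0.999992). Of all genes 0.00623% passed in the test of time by IFN with siFLuc and 0% in each of the other 3. No mRNA row reached an unadjusted p under 0.05 there. At this size of error a difference of that order was not detectable.

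RNAs of nuclear genes that carry no long poly(A) tail were measured beside the members. The 5 on that list, RN7SK, RN7SL1, RN7SL2, RMRP and RPPH1, held 0.0532% to 0.241% of TPM in mock and 0.0776% to 0.176% in IFN libraries. With IFN their median change was -0.28, and the lowest limma adjusted p among them was 0.226, for RN7SK. The replication-dependent histones, whose RNAs mostly lack poly(A), were taken by symbol, and lack of poly(A) was not checked for each gene. They held 0.0170% to 0.0255% in mock and 0.0205% to 0.0344% in IFN libraries. Of 28 tested 10 rose and 0 fell, where 13% of all genes rose and 29% fell. The part of either in the rRNA result was not tested.

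MT-TV also passed as lower with IFN, by 1.91 (SE 0.71, limma adjusted p = 0.0360). It was above 0 in 6 of 12 mock libraries (11.0 to 34.4 TPM) and 1 of 12 IFN libraries (11.7 TPM), and listed at 0 in the rest. Its call held in 12 of 24 fits with 1 library removed. Over all tRNA rows, 34 of 264 values in mock and 20 of 264 in IFN libraries were above 0.

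MT-CO3 was the mRNA row with the lowest IFN change, and it did not pass over all libraries but did without 1 of them. Its IFN change was -0.14 (SE 0.12, limma adjusted p = 0.374) over all libraries, and -0.26 (adjusted p = 0.000274) without the siFLuc mock 12 h library numbered 4. That library was singled out by its low mitochondrial rows, MT-CO3 among them, so the second p-value comes after a selection on the tested values. The share of all genes called in that fit was not computed. The MT-CO3 values by library follow. In siFLuc cells at 8 h MT-CO3 was 19473, 18721 and 17765 TPM in mock and 17446, 17301 and 17939 TPM in IFN libraries. At 12 h it was 21577, 20962 and 7778 TPM against 16419, 17567 and 14331 TPM. The mock libraries at 12 h split around the IFN libraries, with the one numbered 4 below them.

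MT-CO3 in siBOP1 cells was 20149, 20957 and 18993 TPM in mock and 17769, 18181 and 16103 TPM in IFN libraries at 8 h, with no overlap. MT-CO1 and MT-ND4L were also lower without overlap there, so 3 of 13 mRNA rows were, against 26.7% of all genes. At 12 h MT-CO3 was 22545, 22576 and 17563 TPM in mock and 17099.8, 17891 and 14702 TPM in IFN libraries, and the groups overlapped. Without the siFLuc mock 12 h library numbered 4, MT-CO3 passed the limma test as lower with IFN in siFLuc and siBOP1 cells at 12 h, with the limits given above for that fit. It passed with neither siRNA at 8 h.

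A ratio within a library takes out a level shared by the members. The ratio of MT-CO3 to MT-CO2, both of complex IV and both on the plus strand, was examined after the values were seen, so it is given with no test. Its group means with IFN and in mock libraries were 0.909 and 1.03 in siFLuc cells at 8 h, 0.851 and 0.994 at 12 h, 0.911 and 0.980 in siBOP1 cells at 8 h, and 0.834 and 1.01 at 12 h. IFN libraries lay below mock libraries with no overlap in all 4 pairs. Of the members only MT-RNR2 did the same relative to MT-CO2, and of all genes tested 2.23% lay below and 2.69% above without overlap in all 4. The ratio shows unequal change of the rows, not which of them changed. The pattern also depended on the row chosen as denominator. Relative to MT-ATP6, MT-CO3 overlapped between IFN and mock libraries in siFLuc cells at both times and in siBOP1 cells at 8 h. As a share of the summed mRNA rows, MT-CO3 was lower without overlap in 1 of the 4 pairs, and MT-CO2 was higher in 2.

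Without the siFLuc mock 12 h library numbered 4, all 13 mRNA rows were below 0 with IFN (median -0.09) and MT-CO3 was the 1 that passed. In the libraries numbered 1 and 2 alone, 12 of 13 were below 0 (median -0.08), and MT-CO3 (-0.26), MT-CYB (-0.16), MT-ND5 (-0.14) and MT-ATP6 (-0.08) passed (limma adjusted p = 5.05e-06, 0.00331, 0.0408 and 0.0329). The share of all genes that fell was not computed for either fit, so these calls cannot be set against it. In the fit of all libraries that share was 29%. With median-of-ratios rescaling, 12 of 13 were above 0 (median 0.10), so the direction of the mRNA rows as a set differed with the scaling and with 1 library. The rRNA rows fell and passed in all 11 alternatives and all 24 fits without 1 library. There MT-RNR2 lay between -0.51 and -0.35 and MT-RNR1 between -0.39 and -0.24.

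**Figure D3:**
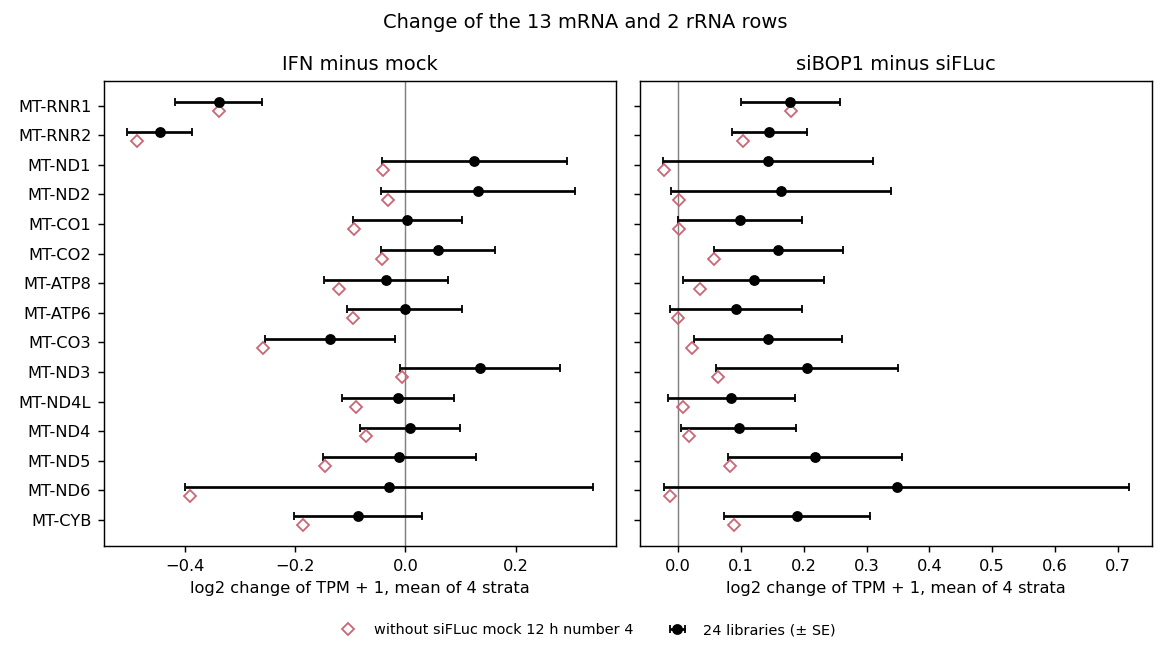
Change of the 13 mRNA and 2 rRNA rows on the log2(TPM + 1) scale, for IFN against mock (left) and siBOP1 against siFLuc (right), each averaged over 4 strata. Filled points are the fit of 24 libraries with its SE, and open diamonds the same fit without the siFLuc mock 12 h library numbered 4. MT-RNR1 and MT-RNR2 lie at -0.34 and -0.45 with IFN, and the mRNA rows spread around 0 and shift to lower values without that library.

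The nuclear genes that serve the same complexes fell more often than they rose with IFN, as did all genes (29% fell, 13% rose). Of 79 nuclear subunits of oxidative phosphorylation 41 fell and 2 rose, with a median of -0.14. By complex, 18 of 37 subunits of complex I fell and 2 rose, 1 of 4 of complex II, 7 of 9 of complex III, 2 of 11 of complex IV and 13 of 18 of the ATP synthase fell. NDUFA9, an accessory subunit of complex I, rose by 0.64 (limma adjusted p = 8.73e-11). NDUFA5, also of complex I, fell by 0.40 (adjusted p = 8.63e-08) and ATP5PB, of the ATP synthase stalk, fell by 0.39 (adjusted p = 1.23e-06).

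Of the 82 genes for mitochondrial ribosomal proteins 42 fell and 4 rose with IFN (median -0.14). MRPL34 fell by 0.54 (limma adjusted p = 1.07e-06), MRPS34 by 0.43 (adjusted p = 2.63e-05), and MRPL17 rose by 0.69 (adjusted p = 8.07e-10). Of the 9 genes listed here under mitochondrial transcription, not all of which need act in it, 4 fell, led by MTERF2 (-0.55), TFB1M (-0.46) and MTERF4 (-0.43). POLRMT, the mitochondrial RNA polymerase, changed by -0.09 (adjusted p = 0.175) and TFAM, which packages mitochondrial DNA and starts its transcription, by -0.14 (adjusted p = 0.0637). Neither passed.

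RNA processing, tails and decay hold the largest change of the nuclear lists. PNPT1, the mitochondrial exoribonuclease that degrades RNA with the helicase SUPV3L1, rose by 2.77 with IFN (SE 0.04, limma adjusted p = 3.31e-22). In siFLuc cells at 8 h it was 32.0, 30.7 and 37.0 TPM in mock and 206, 226 and 214 TPM in IFN libraries, and in the other 3 pairs it was 23.7 to 31.6 TPM in mock and 162 to 226 TPM in IFN libraries, with no overlap. PNPT1 is an interferon-stimulated gene. SUPV3L1 changed by -0.11 (adjusted p = 0.371) and MTPAP, the mitochondrial poly(A) polymerase, by -0.09 (adjusted p = 0.461). LRPPRC, which stabilises mitochondrial mRNAs, fell by 0.19 (adjusted p = 0.00864), and its partner SLIRP changed by -0.13 (adjusted p = 0.125). Among the processing genes 4 of 13 fell, with FASTKD1 (-0.53) the lowest, and the tRNA methyltransferase subunit TRMT10C changed by -0.05 (adjusted p = 0.824). RNASEH1 (-0.43) was the 1 of 11 genes for maintaining mitochondrial DNA that fell, and ESRRA (-0.23) the 1 of 6 biogenesis regulators.

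The second comparison was siBOP1 against siFLuc. No mitochondrial member passed averaged over treatment and time, where 16.9% of all genes did (limma, 2 members at an unadjusted p under 0.05, both rRNAs). All 13 mRNA rows were above 0, from 0.08 for MT-ND4L to 0.35 for MT-ND6 (median 0.14, all genes -0.00074). Without the siFLuc mock 12 h library numbered 4, 10 of 13 were above 0 and the median was 0.02. MT-RNR1 stood at 0.18 (adjusted p = 0.134) and MT-RNR2 at 0.15 (adjusted p = 0.101). Blocked by column number, MT-RNR1 (adjusted p = 0.0278) and MT-CYB (0.19, adjusted p = 0.0439) rose, in a fit where 15.8% of all genes did.

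MT-CYB in mock cells at 8 h was 4757, 5113 and 4008 TPM with siBOP1 and 4354, 4657 and 3393 TPM with siFLuc, and at 12 h 5274, 5197 and 4072 TPM against 4712, 4593 and 2030.2 TPM. The groups overlapped at both times. In mock cells at 8 h MT-CO1, MT-CO2 and MT-ND4L were higher with siBOP1 without overlap, as were 12.4% of all genes, and in mock cells at 12 h MT-RNR2 was, as were 10.4% of all genes. No member passed in any of the 4 comparisons within treatment and time, where 2.16%, 1.6%, 2% and 0.66% of genes did (mock at 8 h, mock at 12 h, IFN at 8 h, IFN at 12 h).

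Of 79 nuclear oxidative phosphorylation subunits 5 rose and 3 fell, where 10% of all genes rose and 6.91% fell. ATP5F1C, a subunit of the ATP synthase core, fell by 0.84 (limma adjusted p = 9.78e-10), and the complex I subunits NDUFA1 and NDUFC2 rose by 0.57 and 0.28. Of 82 mitochondrial ribosomal proteins 9 fell and 1 rose, with MRPS27 (-0.37), MRPS10 (-0.24) and MRPL1 (-0.22) the largest. PDE12, which removes poly(A) from mitochondrial RNA, rose by 0.31, and TOP1MT, the mitochondrial topoisomerase, fell by 0.32. PNPT1 changed by -0.01 (adjusted p = 0.928).

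The third comparison was 12 h against 8 h, in which no member passed (limma, 25% of all genes did). Nor did one pass within siFLuc mock, siFLuc IFN, siBOP1 mock or siBOP1 IFN cells, where 0.131%, 3.53%, 0.23% and 2.96% of genes passed. At an unadjusted p under 0.05 there was 1 mRNA row, MT-ND6, with a change of -0.92 (SE 0.37, adjusted p = 0.0747). Its TPM at 8 h was 181, 106 and 118 in siFLuc mock, 177, 102 and 102 in siFLuc IFN, 308, 103 and 129 in siBOP1 mock and 121, 77.4 and 118 in siBOP1 IFN libraries. At 12 h it was 128, 92.9 and 4.44, then 105, 82.3 and 40.8, then 103, 96.8 and 77.3, and 102, 88.6 and 53.7 in the same order. The 4 lowest values came from the libraries numbered 4 at 12 h, the highest of them (77.3 TPM) next to 77.4 TPM in a siBOP1 IFN library at 8 h. Of the 13 mRNA rows 12 were below 0 (median -0.05), and 11 above 0 (median 0.05) without the siFLuc mock 12 h library numbered 4. In that fit MT-ND6 passed as lower at 12 h, and the share of all genes that did so was not computed. MT-ND6 did not pass without all libraries numbered 4 at 12 h.

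The libraries numbered 4 differed from those numbered 1 and 2 in the mitochondrial rows. Earlier results of these data were known to show that these libraries stand apart, and that 1 of them has the lowest mitochondrial share. This comparison was chosen with that known, so its p-values describe the difference and give no independent support for it. With the group means held, all 13 mRNA rows were lower in the number 4 libraries at 12 h, from -1.67 for MT-ND6 to -0.44 for MT-ND4 (median -0.53, limma adjusted p 0.000105 to 0.0181), against 9.09% of all genes lower and a median of 0.12 over all genes. MT-RNR1 was higher by 0.33 (adjusted p = 0.00593, against 31.3% of all genes higher) and MT-RNR2 changed by -0.03 (adjusted p = 0.793). At 8 h all 13 were below 0 (median -0.21), and MT-CYB passed (-0.36, adjusted p = 0.0215), against 8.72% of all genes lower. Without the siFLuc mock 12 h library numbered 4, 11 of 13 passed as lower at 12 h with a median of -0.32, against 6.64% of all genes. Without that library 7 of 13 passed as lower at 8 h in place of 1, against 10.1% of all genes: MT-ND1, MT-ND2, MT-CO1, MT-ATP6, MT-ND4, MT-ND5 and MT-CYB. The changes at 8 h were the same in both fits. At 8 h the count was 0 without the number 4 library of siFLuc mock, siFLuc IFN or siBOP1 IFN cells at 8 h. What the number stands for is not given in the labels.

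The siFLuc mock 12 h library numbered 4 had most mitochondrial rows low, but unequally. Set against the mean of numbers 1 and 2 of its group, MT-RNR1 stood at 99.96% and MT-RNR2 at 70.8%. The mRNA rows ranged from 4.03% (MT-ND6) and 25.2% (MT-ND1) to 53.0% (MT-ND4L). Over the 14310 genes above 1 TPM in numbers 1 and 2 the median was 111%, with 5% of genes below 43.2%.

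**Figure D4:**
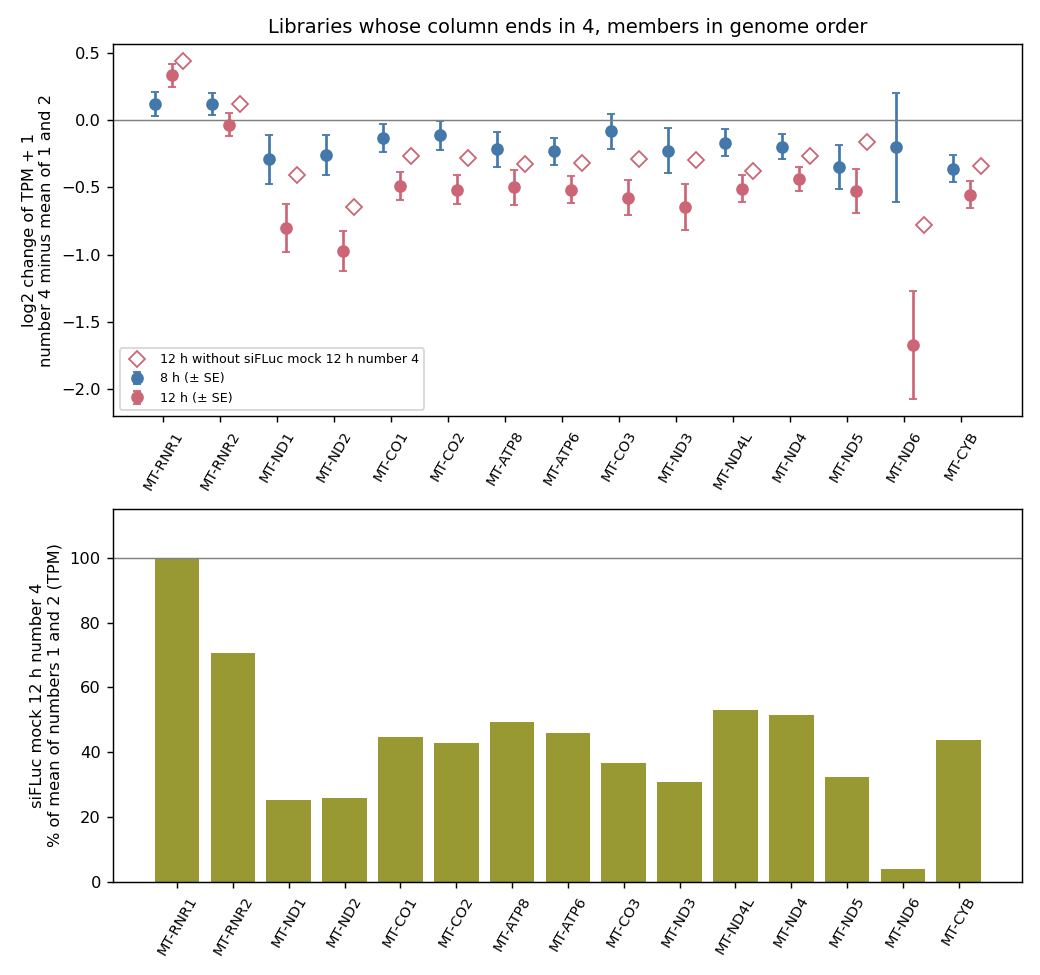
Members in genome order on the x axis. Top, change on the log2(TPM + 1) scale of libraries numbered 4 against the mean of those numbered 1 and 2, with SE, at 8 h and 12 h, and at 12 h without the siFLuc mock 12 h library (diamonds). Bottom, TPM of that library as percent of the mean of numbers 1 and 2 of its group, with a line at 100%. All 13 mRNA rows lie below 0 at 12 h, and the bars are lowest for MT-ND6 at 4.03%.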

How the data were processed

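Polyadenylated RNA of A549 cells was measured in 24 libraries of 8 groups, per the labels. The authors deposited a table of TPM values with each column summing to 1000000. The aligner, quantification tool, build and annotation are not given in the sources used here. Symbols matched 60340 of 60609 rows. All 37 members have the same ID version in GENCODE 29 (GRCh38), from which positions and sequences came. The 8 columns ending in 4 match a group but no labelled replicate (the labels number replicates 1, 2 and 3) and served as members of their group only. No 2 columns were identical.

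TPM plus a pseudocount of 1 was put on the log2 scale. The fit (R 4.3.3, limma 3.58.1, trended eBayes) gave each group a mean, shared 1 spread over all 24 libraries and had no block. It covered 16062 genes, those reaching 1 TPM in 3 or more libraries. Low genes have understated changes on this scale. Benjamini-Hochberg adjustment ran over all genes within each of 19 comparisons, with a threshold of 0.05. The fit was run on simulated data with independent noise and an IFN effect alone. These had no link between same-numbered libraries, so they cannot give the error rates for the present data. Shares and ratios carry no test.

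Same-numbered libraries deviated together in the IFN and siRNA comparisons (correlations across genes of 0.115 to 0.508), so blocked values are printed where they change a call. Between 8 h and 12 h the correlations were -0.113 to 0.196.

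All mRNA and rRNA members were described. The named tRNAs are the 4 with the highest mean and any that passed in an averaged comparison. Nuclear genes named are a fixed set and up to 3 called genes of a list with the largest change. The members and lists were chosen with earlier results of these data known, and the libraries numbered 4 at 12 h were left out as an alternative added after seeing the data. The other alternatives were a pseudocount of 0.1, other filters, other scalings, fits without trend or of fewer groups, blocks, and leaving out libraries.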

Additional observations from a re-analysis of the deposited data

How the results depend on the processing

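Counts below are member rows called by limma. Apart from the shares printed above, the share of all genes called in these alternative fits is not given. A changed member count therefore cannot be told from a change in calls over all genes. Single-gene values were recomputed only for member calls of the main fit, among them the 16 calls of number 4 against 1 and 2. The averaged IFN calls of MT-RNR1 and MT-RNR2 were counted apart. Of these 674 values, 595 kept direction and call, 79 kept direction but were no longer called, and 0 changed direction. Rows not called in the main fit are not covered, and the mRNA rows with IFN did change direction, as given above. The IFN count averaged over siRNA and time, 3 as reported, was 5 with quantile normalization and 6 in the libraries numbered 1 and 2 alone. The siBOP1 count, 0 as reported, was 1 with quantile normalization and 3 in numbers 1 and 2 alone. The 12 h against 8 h count, 0 as reported, was 1 with median-of-ratios rescaling, 2 in numbers 1 and 2 alone and 3 without the libraries numbered 4 at 12 h. The IFN count within siRNA and time, 4 as reported, was 1 with no filter, 1 with median-of-ratios rescaling, 2 with quantile normalization, 2 with the groups compared alone, 11 in numbers 1 and 2 alone and 11 without the libraries numbered 4 at 12 h. The siBOP1 count within treatment and time, 0 as reported, was 1 with the groups compared alone. The cause was not tested.

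Under a replicate block by column number, the siBOP1 count averaged was 2, the 12 h against 8 h count 1 (MT-ND6, adjusted p = 0.0286, though the numbers do not pair the times) and the IFN count within siRNA and time 7. With a block on the labelled replicates 1 and 2 only, the counts were 8 (IFN averaged), 5 (siBOP1 averaged), 3 (12 h against 8 h averaged), 15 (IFN within), 3 (siBOP1 within) and 2 (12 h against 8 h within). The column block changed no count of the interactions.

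Leaving out 1 library at a time gave 2 to 5 (IFN averaged), 0 to 1 (siBOP1 averaged), 0 to 1 (12 h against 8 h averaged), 2 to 8 (IFN within), 0 to 1 (siBOP1 within), 0 to 1 (12 h against 8 h within) and 15 to 19 (number 4 against 1 and 2, 16 as reported). In percentage points, the mRNA share changed by -0.286 with IFN (-0.901 to 0.0644), 0.878 with siBOP1 (0.263 to 1.23) and -0.237 from 8 h to 12 h (-0.588 to 0.377). The rRNA share changed by -0.505 (-0.546 to -0.474), 0.182 (0.141 to 0.213) and -0.104 (-0.135 to -0.0638). The tRNA share changed by -0.00112 (-0.00205 to -0.000424), -0.000555 (-0.00134 to 0.000375) and -0.00167 (-0.00237 to -0.000738). MT-RNR1 and MT-RNR2 with IFN lay between -0.39 and -0.31 and between -0.49 and -0.42. Depth is unknown, so no detection floor can be given for the tRNA rows.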
